A study of Homo sapiens with 8 samples.

Results

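Long terminal repeats (LTRs) are the regulatory ends of endogenous retroviruses, the remains of old retroviral infections in the genome. An intact provirus has an LTR at each end of its genes, and recombination between both ends leaves a single LTR behind, a solo LTR. LTRs carry promoters and polyadenylation signals, many are silenced by DNA methylation and by repressive histone marks, and the RNA made from released copies can form the double-stranded RNA that innate sensors recognise. The deposited table of RNA-seq values holds, beside genes, 1264 repeat families. The solo LTR families were taken from it by name, as every row without a gene identifier whose name starts with LTR and a number. Internal parts of proviruses, the LTR12 families and the LTR7, LTR7A, LTR7B, LTR7C and LTR7Y families were left out. This gave 231 families, 18.3% of all repeat families. Each value sums all annotated copies of a family, so true solo LTRs and LTRs that still flank a provirus were counted together.

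THP-1 is an established human line from an acute monocytic leukemia. Decitabine (DAC) is a cytidine analogue that traps DNA methyltransferases once it is in DNA. RNA-seq libraries were made from parental THP-1 cells and from DAC-resistant THP-1 cells, a population selected by repeated DAC exposure and then kept without the drug before the experiment. Each line was kept for 6 days with 1 µM DAC or with its solvent DMSO alone, which gave 4 groups of 2 replicates, and both lines are labelled as wild type. The questions were what DAC did to the LTR families in each line, and how the resistant line differed from the parental line with and without the drug.

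Read totals over all repeat families were 3112608 to 3725841 per library, and the solo LTR families held 87005 to 101678 of these reads, or 2.73% to 2.85%. Repeat reads per 1000 gene reads were 114 to 117 in the parental libraries and 103 to 104 in the resistant ones. All 10 monocyte and myeloid markers were detected, with a summed level of 261 to 266 FPKM (reads scaled by length and by the total of the library) in parental DMSO, 382 to 391 in parental DAC, 194 to 208 in resistant DMSO and 205 to 211 in resistant DAC. The 3 T cell markers summed to at most 0.727 FPKM in any library, and the 2 erythroid markers to at most 2.94. The 3 fibroblast and epithelial markers summed to 0.641 to 0.745 FPKM in parental DMSO and to at least 4.33 in every other library, but this sum was carried by COL1A1 alone, at 0.641 to 0.693 FPKM in parental DMSO and 4.06 to 6.14 elsewhere. EPCAM was at most 0.0898 FPKM in any library and KRT18 at most 0.427, and both were at 0 in all resistant libraries. The part of these markers in the LTR results was not tested.

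Of the 231 families, 111 belong to the ERV1 class (gamma-retrovirus-like), 58 to ERVL (spuma-retrovirus-like), 24 to ERVK (beta-retrovirus-like) and 11 to the old Gypsy-related LTRs, and 27 were not assigned. The total length of a family ranged from 4890 bp for LTR5 to 2385629 bp for LTR33, with a median of 124992 bp. The number of reads per family had a median of 157, and 153 families had a mean of at least 100 reads. Of the families, 228 passed the filter on low values and were tested. LTR89B and LTR91A had no read in any library, and LTR108c_Mam was found in a single library.

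Per length, LTR6A had the highest level in the mean of each group, with a mean of 16.8 FPKM over the 8 libraries. LTR6A is the LTR of the HERVS71 proviruses, and it alone held 9.27% of all solo LTR reads. LTR2C followed with 8.96 FPKM, LTR5 with 5.5, LTR4 with 4.25 and LTR3 with 3.12, and then LTR16D1, LTR21A, LTR06, LTR22E and LTR21B lay between 2.11 and 2.79. The level of LTR5 rested on a mean of 88 reads and went from 4.12 to 7.50 FPKM over the libraries, so its rank against LTR4 was within its spread. Ranks also moved with the groups. In parental DAC the mean of LTR6A was 8.17 FPKM, close to 7.42 for LTR2C, and that of LTR4 was 6.76, whereas in parental DMSO LTR4 stood at 2.19, beside 2.24 for LTR3. The median family stood at 0.412 FPKM. By number of reads, LTR6A was followed by the long families LTR78, LTR33, LTR2C and LTR8, and these 5 held 23.3% of the solo LTR reads.

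The sequence of an LTR is shown by a copy that the reference genome holds at a known provirus, chosen after the values had been seen because the data bear on its family and its gene. ERV3-1 is the envelope gene of a HERV-3 provirus on the minus strand of chromosome 7, and LTR4 is the LTR of HERV-3. A self-comparison of the hg38 sequence found its pair of LTRs as direct repeats at chr7:64999343-64999937 (5′ LTR) and chr7:64990323-64990916 (3′ LTR), which were 90.9% identical. A RefSeq start of ERV3-1 lies in the 5′ copy, although 0 bases of this copy are in GENCODE exons of the gene, whose GENCODE gene model begins upstream of it at 65006743. The 3′ copy overlaps 561 bases of these exons. The 250 bases before this start (chr7:64999443-64999692, from the RefSeq promoter of GRCh38.p14) are given on the minus strand from 5′ to 3′, with each CG, the dinucleotide that DNA methyltransferases act on, in capitals.
LTR4 copy of ERV3-1: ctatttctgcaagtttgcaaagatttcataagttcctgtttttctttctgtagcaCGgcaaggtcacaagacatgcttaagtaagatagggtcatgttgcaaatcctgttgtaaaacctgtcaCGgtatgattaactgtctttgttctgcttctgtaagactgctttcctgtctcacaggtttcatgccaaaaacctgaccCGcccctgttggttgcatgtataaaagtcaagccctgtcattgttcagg
The stretch holds 3 CG. Among 35116 RefSeq promoters, 77.1% held at least 3 CG in the same 250 bases before the start, with a median of 11. Over the whole 5′ LTR there were 5 CG. These matches describe a single copy, and the methylation of these sites was not measured here.

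DAC raised 12 families in parental cells, 10 of them ERV1, and lowered the most abundant family. A family was called raised or lowered when limma's unadjusted p did not exceed 0.01 and its level changed by 1 or more on the log2 scale. In this comparison 12 of the 228 families were raised, where 3.43% of all 1165 repeat families tested were raised, and 2 were lowered, beside 0.773%. With values rescaled to a common sum (TPM), which moved the median of all repeat families by -0.40, the counts were 6 raised (LTR26, LTR23, LTR48B, LTR67B, LTR4 and LTR108b_Mam) and 9 lowered. Of the 12, LTR26, LTR23, LTR48B, LTR4, LTR68, LTR71A, LTR1F1, LTR1D, LTR1A2 and LTR39 are ERV1, LTR67B is ERVL and LTR108b_Mam was not assigned. The ERV1 class had 10 raised and 1 lowered of 111 families tested. By a Benjamini-Hochberg adjusted p under 0.05 in limma, 13.5% of ERV1 families were higher and 6.31% lower. Over all repeat families these shares were 12.6% and 11%. The median log2 fold change of ERV1 was -0.03. The ERVK class, which holds the youngest human proviruses, had 0 of 24 by limma. Of its families 5 had an unadjusted p under 0.05, beside 37.1% of all repeat families. As shares of repeat reads the families as a whole hardly moved, with a median log2 fold change of 0.06 beside -0.02 over all repeat families. A joint change of all repeats would not show in such shares, and the median depended on the scaling. At a Benjamini-Hochberg adjusted p under 0.05 in limma, 29 families were higher and 17 lower, beside 12.6% and 11% of all repeat families. Both DAC libraries were above both DMSO libraries in 78 families and below them in 71, beside 31.7% and 34.2% of all repeat families. In bulk RNA a lower or higher level cannot tell fewer cells with a transcript from less transcript per cell.

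LTR26 rose most among the raised families with a mean of at least 100 reads. Its reads were 225 and 255 in parental DMSO, 1794 and 1683 in parental DAC, 518 and 475 in resistant DMSO, and 492 and 486 in resistant DAC. The corresponding levels were 0.226 and 0.270, 2.13 and 1.99, 0.594 and 0.570, and 0.561 and 0.574 FPKM. The parental DAC libraries thus stood above all others, the parental DMSO libraries were lowest, and the 4 resistant libraries lay together in between. In parental cells the mean rose 8.3-fold under DAC, a log2 fold change of 3.05 ± 0.09 (SE, n = 2 per group, limma adjusted p = 4.0e-05).

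LTR23 behaved alike. It had 244 and 231 reads in parental DMSO, 1312 and 1378 in parental DAC, 372 and 363 in resistant DMSO, and 292 and 307 in resistant DAC. Its level in parental cells went from 0.358 ± 0.00022 to 2.33 ± 0.074 FPKM (SD, n = 2), a log2 fold change of 2.70 ± 0.05 (SE, limma adjusted p = 2.6e-05). The resistant groups did not overlap with either parental group.

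LTR48B and LTR67B came next. LTR48B had 410 and 424 reads in parental DMSO, 1200 and 1392 in parental DAC, 326 and 295 in resistant DMSO, and 332 and 395 in resistant DAC, and its log2 fold change under DAC in the parental line was 1.83 ± 0.13 (SE, limma adjusted p = 0.00072). Only the parental DAC libraries stood out, and the resistant libraries were near the parental DMSO ones. LTR67B had 1766 and 1655 reads in parental DMSO, 4855 and 4615 in parental DAC, 2394 and 2053 in resistant DMSO, and 2156 and 1857 in resistant DAC. It was the raised family with the most reads and the only ERVL family among the 12, at a log2 fold change of 1.67 ± 0.08 (SE, limma adjusted p = 0.00018).

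LTR4, the LTR of HERV-3 whose copy at ERV3-1 is printed above, had 395 and 397 reads in parental DMSO, 1107 and 1019 in parental DAC, 560 and 542 in resistant DMSO, and 763 and 709 in resistant DAC. All 4 groups were apart, with parental DMSO lowest and parental DAC highest. Under DAC in the parental line LTR4 changed by 1.62 ± 0.06 on the log2 scale (SE, limma adjusted p = 6.1e-05). In resistant cells it was 0.40 ± 0.06 (SE, limma adjusted p = 0.19).

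**Figure D1:**
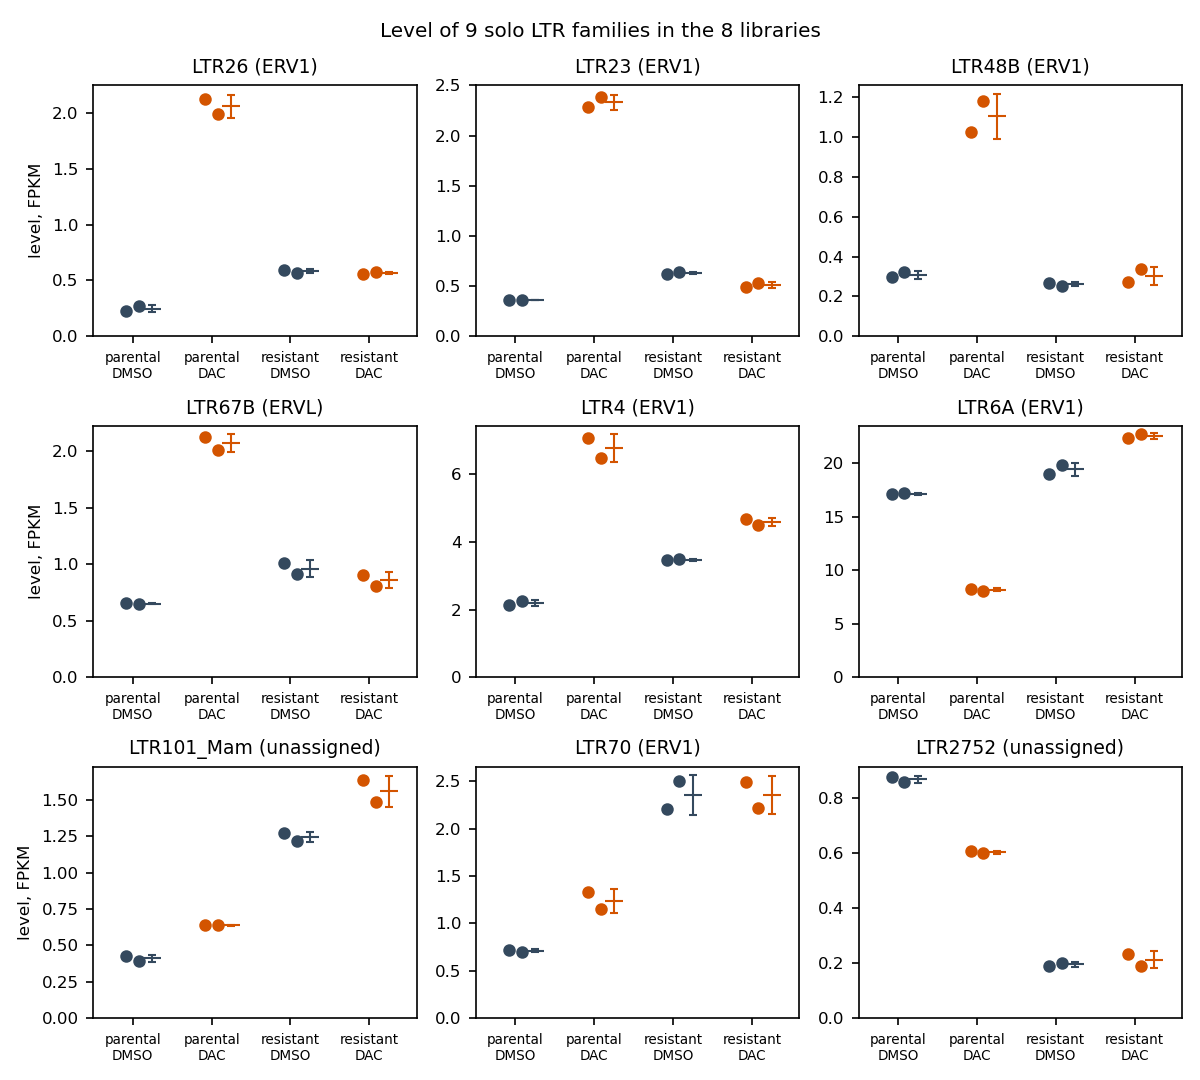
Level in FPKM (linear axes from 0) of 9 solo LTR families in the 8 libraries, with points for single libraries and a dash with bar for the mean ± SD of each group of 2. LTR26, LTR23, LTR48B, LTR67B and LTR4 are highest in parental DAC, LTR6A is lowest there, and LTR101_Mam, LTR70 and LTR2752 separate the resistant from the parental libraries.

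The other raised families changed less. LTR71A went from 142 and 167 reads to 313 and 301, and LTR39 from 1100 and 949 to 1827 and 1754. LTR71A, LTR1F1, LTR1D, LTR1A2 and LTR39 had log2 fold changes of 1.01 to 1.19. None of their parental DAC libraries overlapped with parental DMSO. LTR1A2 was not called without the first parental DMSO or the second parental DAC library (0.85 to 0.90), LTR1D without the second library of either group (0.94 to 0.96), LTR39 without the second DMSO or the first DAC library (0.94 to 0.98), and LTR1F1 without the first DMSO or either DAC library (1.09 to 1.22). LTR68 rested on 38 to 150 reads, and its log2 fold change of 1.57 ± 0.36 (SE, limma adjusted p = 0.035) lost its call when any single library other than the second parental DMSO one was left out. LTR108b_Mam had no read in parental DMSO, 4 and 12 in parental DAC, 10 and 1 in resistant DMSO, and 1 and 2 in resistant DAC. Its call was lost without the second parental DAC library, and at this depth its size of change could not be given, as a count of 0 allows up to 3 reads.

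LTR6A moved the other way. It had 9792 and 9336 reads in parental DMSO, 4002 and 3925 in parental DAC, 9501 and 9497 in resistant DMSO, and 11265 and 11041 in resistant DAC. Its level fell from 17.2 ± 0.096 to 8.17 ± 0.14 FPKM (SD, n = 2) under DAC in the parental line, a log2 fold change of -1.07 ± 0.06 (SE, limma adjusted p = 0.00036). In the resistant line the level was 19.4 ± 0.61 FPKM in DMSO and 22.5 ± 0.26 in DAC, so that only the parental DAC libraries were low. LTR81, one of the Gypsy-related families, had 195 and 149 reads in parental DMSO, 65 and 64 in parental DAC, and 122 to 170 in the resistant libraries, and its log2 fold change was -1.20 ± 0.17 (SE, limma adjusted p = 0.0089).

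Families of one number are relatives by name, and some called families stood beside relatives with smaller changes. LTR26 rose, while LTR26B, LTR26C, LTR26D and LTR26E had log2 fold changes from -0.79 to 0.27, none of which was called. LTR48 stayed at -0.05 beside 1.83 for LTR48B, and LTR71B at 0.42 beside 1.19 for LTR71A. The 15 LTR1 families, LTRs of ERV1 elements, ranged from -1.90 to 1.34, with 3 raised (LTR1A2, LTR1D and LTR1F1) and none lowered. LTR6B was at -0.29 beside -1.07 for LTR6A, and the 4 other LTR81 families lay between 0.04 and 0.33 beside -1.20 for LTR81. Other relatives had one sign, as the 4 LTR3 families, at 0.09 to 0.74, and the 3 LTR8 families, at -0.21 to -0.07. A difference between relatives was not itself tested.

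**Figure D2:**
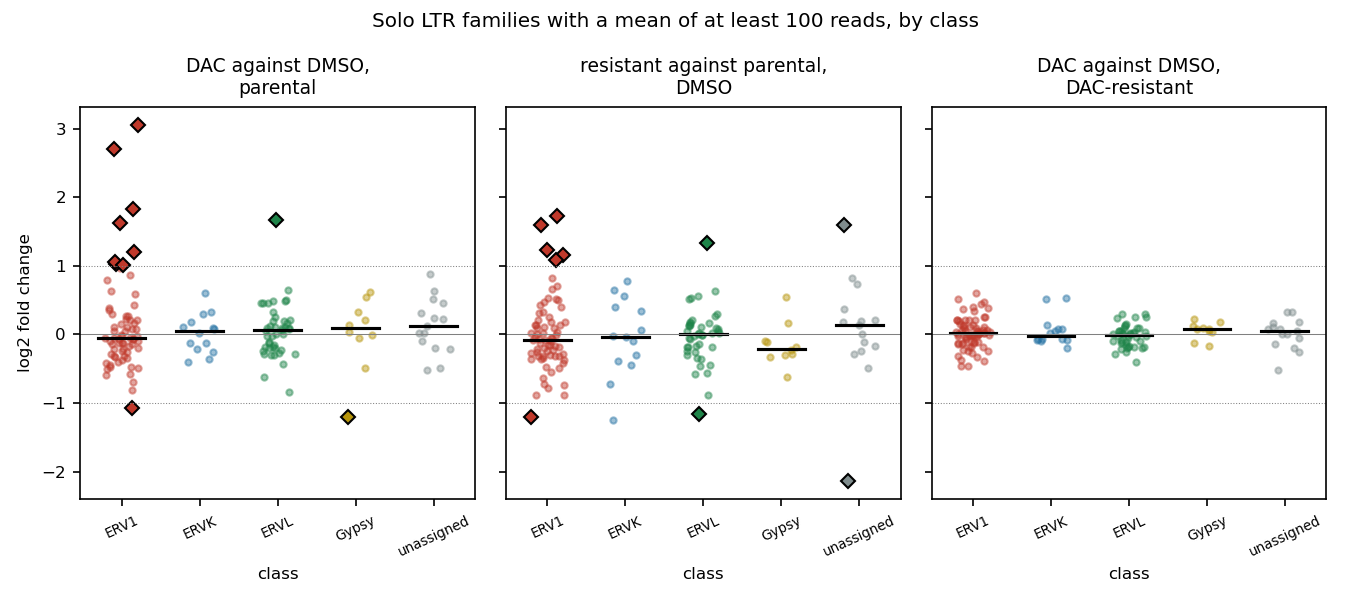
Log2 fold change of the 153 solo LTR families with a mean of at least 100 reads, by class, in 3 comparisons, with black lines for class medians and outlined diamonds for called families. In parental cells with DAC the calls sit mainly in ERV1, and in resistant cells with DAC no family is called and all points lie between -0.52 and 0.60.

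Without the drug, LTR70, LTR101_Mam and LTR1A2 were among the families that were higher in the resistant line, and LTR2752 was much lower. Against parental cells in DMSO, 9 of the 228 families (3.95%) were raised, beside 2.49% of all repeat families, and 7 (3.07%) were lowered, beside 2.15%. Rescaling to TPM moved the median of all repeat families by -0.11 and gave 7 raised and 10 lowered, and scaling by gene reads moved it by -0.18 and gave 6 raised and 12 lowered. The raised ones were LTR70, LTR1A2, LTR26, LTR1D and LTR21A of ERV1, LTR32 of ERVL, LTR22B2 of ERVK, and LTR101_Mam and LTR108b_Mam. The call of LTR108b_Mam rested on 10 and 1 reads against 0 and was lost without either parental DMSO library, under quantile normalization and under voom, and that of LTR1D was lost under gene-read scaling, at 0.98. The lowered ones were LTR59, LTR1C, LTR45C, LTR1F1 and LTR27 of ERV1, LTR16B of ERVL and the unassigned LTR2752. The median log2 fold change was -0.10, beside -0.07 over all repeat families. At an adjusted p under 0.05 in limma, 23 families were higher and 32 lower, beside 11.9% and 17.6%. Both resistant libraries were above both parental ones in 54 families and below them in 85, beside 26.2% and 40.3% of all repeat families. This comparison shares its parental DMSO libraries with the DAC comparison in parental cells, where LTR26, LTR1A2, LTR1D and LTR108b_Mam were raised too and LTR1F1, lowered here, was raised.

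LTR70 had 268 and 246 reads in parental DMSO, 417 and 362 in parental DAC, 717 and 776 in resistant DMSO, and 816 and 698 in resistant DAC. Both resistant groups stood above both parental groups, and the log2 fold change between the lines in DMSO was 1.72 ± 0.10 (SE, n = 2 per group, limma adjusted p = 0.00054). LTR101_Mam, an old mammalian LTR, had 496 and 434 reads in parental DMSO, 623 and 626 in parental DAC, 1284 and 1180 in resistant DMSO, and 1664 and 1456 in resistant DAC. Its log2 fold change was 1.59 ± 0.06 (SE, limma adjusted p = 0.00017), and none of its 4 groups overlapped with another. LTR1A2 had 320 and 360 reads in parental DMSO, 534 and 685 in parental DAC, 967 and 845 in resistant DMSO, and 815 and 847 in resistant DAC, and its log2 fold change was 1.59 ± 0.15 (SE, limma adjusted p = 0.0021).

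LTR32 had 323 and 346 reads in parental DMSO, 243 and 397 in parental DAC, 773 and 715 in resistant DMSO, and 796 and 767 in resistant DAC. The resistant libraries were above the parental ones whatever the treatment, and the log2 fold change in DMSO was 1.34 ± 0.23 (SE, limma adjusted p = 0.013). It was not called, at 1.25 to 1.36, without the first parental DMSO library or either resistant DMSO library. LTR21A, an LTR of the HERV-FH elements, had 224 and 230 reads in parental DMSO, 141 and 159 in parental DAC, 414 and 429 in resistant DMSO, and 439 and 433 in resistant DAC. Its log2 fold change was 1.08 ± 0.08 (SE, limma adjusted p = 0.00088), and it was under the limit for a call, at 0.90 to 0.97, under TPM, quantile normalization and gene-read scaling. LTR22B2, an LTR of ERVK elements, had 43 to 55 reads in the parental libraries and 88 to 140 in the resistant ones, which did not overlap, and without the second parental DMSO library it was not called, at 0.91, nor under these 3 scalings, at 0.87 to 0.99.

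Among the 7 lowered families LTR2752 had the lowest log2 fold change. It had 696 and 646 reads in parental DMSO, 407 and 404 in parental DAC, 132 and 134 in resistant DMSO, and 164 and 129 in resistant DAC. Its level of 0.869 ± 0.012 FPKM in parental DMSO was 0.196 ± 0.0083 in resistant DMSO (SD, n = 2), a log2 fold change of -2.14 ± 0.10 (SE, limma adjusted p = 0.00033). LTR16B, an old ERVL family, had 492 and 483 reads in parental DMSO, 509 and 561 in parental DAC, 196 and 187 in resistant DMSO, and 211 and 221 in resistant DAC, with a log2 fold change of -1.16 ± 0.07 (SE, limma adjusted p = 0.00054). In both families every resistant library was below every parental one. LTR45C had 243 to 337 reads in the parental libraries and 108 to 176 in the resistant ones. LTR59, LTR1C and LTR27 rested on at most 48 reads in any library, and LTR1F1 on 30 to 155. Under voom on the recovered reads LTR59, LTR1C and LTR27 were not called, nor were LTR27 and LTR1F1 under quantile normalization. LTR45C lost its call without the first parental DMSO library or either resistant DMSO library (-1.25 to -1.01), LTR59 without the second parental DMSO or either resistant DMSO library (-1.54 to -1.28), LTR27 without either parental DMSO or the second resistant DMSO library (-1.09 to -0.95), and LTR1F1 without any of these 4 libraries (-1.15 to -1.02).

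**Figure D3:**
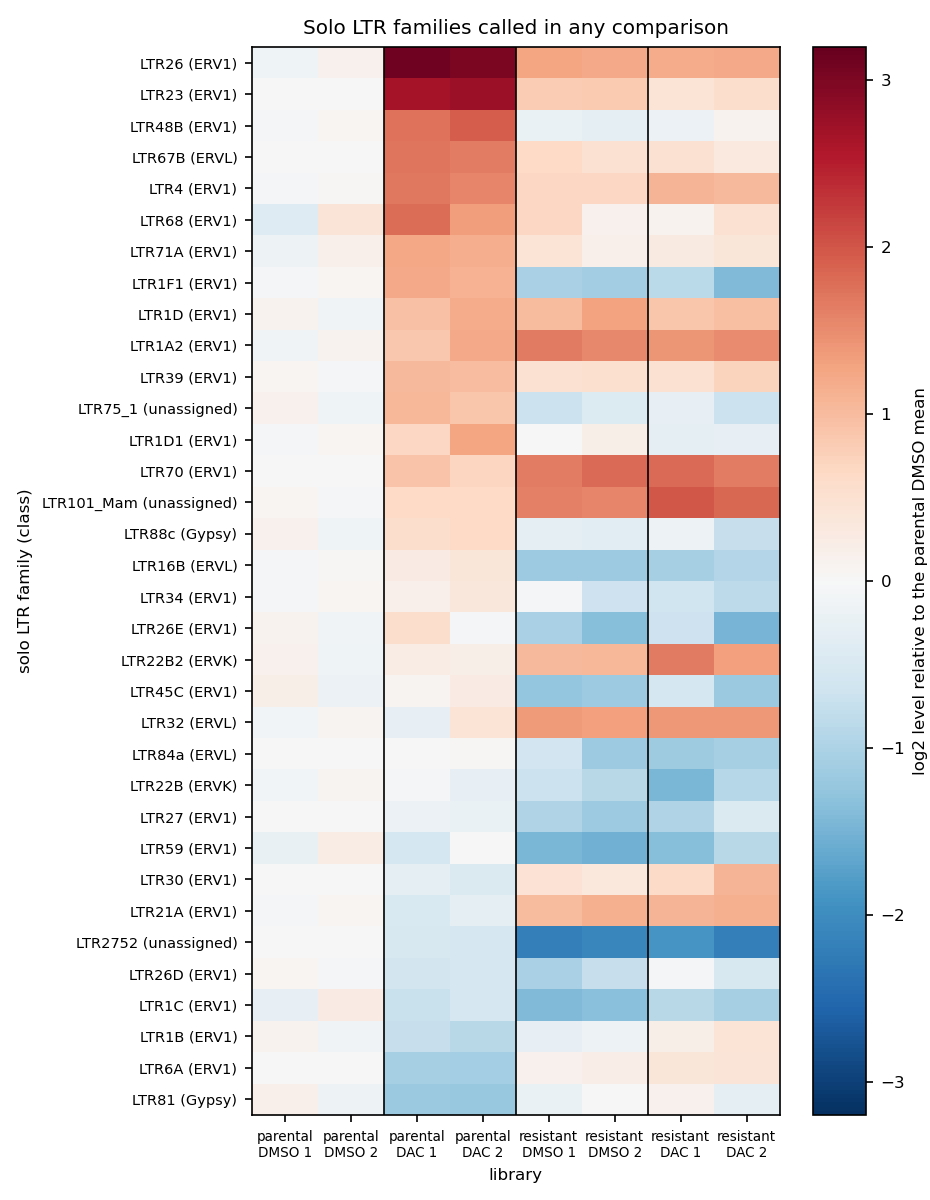
Log2 level of the 34 solo LTR families with calls and at least 10 reads in a library, relative to the mean of the parental DMSO libraries, in each of the 8 libraries (columns), ordered by the DAC change in parental cells. LTR108b_Mam is left out because it had no read in parental DMSO. The top rows are red in parental DAC, from LTR26 downwards, and the resistant columns look alike with and without DAC.

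With DAC in resistant cells no family was raised or lowered by limma at these thresholds, where 0.258% of all repeat families were raised and 0.258% lowered. At an unadjusted p under 0.05, 22 of the 228 families passed, 15 higher and 7 lower, and voom on the recovered reads also called 0. The smallest adjusted p among the families was 0.19 in limma, and 117 of all 1165 repeat families passed the unadjusted threshold. The median log2 fold change was 0.02. The DAC libraries were both above the DMSO libraries in 43 families and both below in 41, beside 23.9% and 19.5% of all repeat families, and at an adjusted p under 0.05 there were 0 families in either direction, beside 0%. Among families with a mean of at least 100 reads, the values ran from -0.52 for LTR75 to 0.60 for LTR26D, and 5 were at least 0.5 in size, compared with 31 in parental cells. Leaving out a resistant DMSO library gave 1 or 2 raised families, and leaving out the first resistant DAC library gave 1 lowered family.

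The families that DAC raised in parental cells had log2 fold changes of -0.31 to 0.40 with DAC in resistant cells, LTR108b_Mam aside, and 4 of these 11 were higher. LTR26 was at -0.04, LTR48B at 0.21, LTR67B at -0.16 and LTR23 at -0.31. LTR4 had the highest value, 0.40, with 4.50 and 4.67 FPKM in resistant DAC above 3.45 and 3.49 in resistant DMSO. In DMSO, the resistant line already held LTR26, LTR1A2 and LTR1D at raised levels against parental DMSO, with log2 fold changes of 1.23, 1.59 and 1.15 (LTR1D 0.98 under gene-read scaling, not called). For LTR23, LTR4 and LTR67B this value was 0.82, 0.66 and 0.56, with limma adjusted p of 0.00067, 0.0015 and 0.0075, under the fold limit for a call. LTR48B was at -0.24 and LTR1F1 was lowered, at -1.08.

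**Figure D4:**
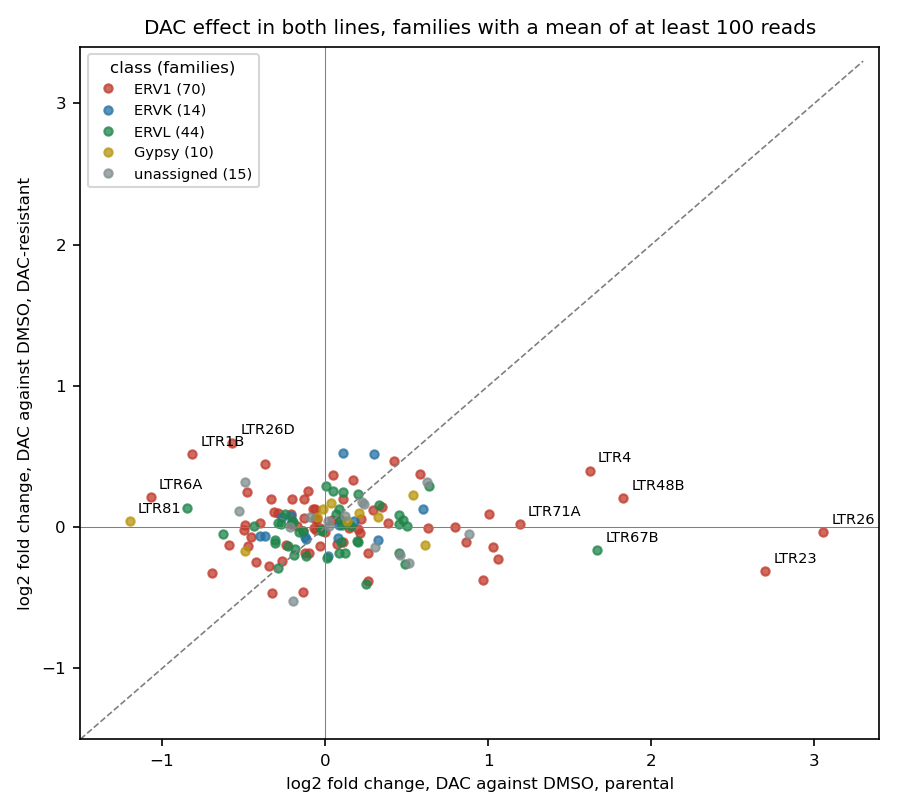
Log2 fold change with DAC in parental cells (horizontal) and in DAC-resistant cells (vertical) for the 153 solo LTR families with a mean of at least 100 reads, coloured by class, with the line of equal change dashed. LTR26 and LTR23 lie far to the right at 3.05 and 2.70 but near 0 on the vertical axis, and LTR6A and LTR81 lie on the left at -1.07 and -1.20.

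The difference between both DAC effects was tested as an interaction, resistant minus parental. It was negative for 11 families, beside 3.26% of all repeat families, and positive for 4, beside 1.12%. Under TPM, which moved the median of all repeat families by 0.35, it was negative for 5 and positive for 9, and under quantile normalization for 9 and 6. At an adjusted p under 0.05 in limma, 11 differences were positive and 17 negative, beside 6.44% and 6.87%. LTR26 had a difference of -3.09 ± 0.13 on the log2 scale (SE, limma adjusted p = 0.00023), LTR23 of -3.01 ± 0.07 (limma adjusted p = 9.2e-05), LTR67B of -1.83 ± 0.11 (limma adjusted p = 0.00071), LTR48B of -1.62 ± 0.18 (limma adjusted p = 0.0060) and LTR4 of -1.22 ± 0.08 (limma adjusted p = 0.00096). LTR1D1, LTR1D, LTR1F1, LTR71A, LTR1A2 and LTR108b_Mam were also smaller in resistant cells. The positive differences were 1.33 for LTR1B, 1.29 for LTR6A, 1.24 for LTR81 and 1.17 for LTR26D. Under TPM LTR4, LTR1D, LTR1D1, LTR1F1, LTR71A and LTR1A2 were not called. LTR1B had 148 and 121 reads in parental DMSO, 69 and 63 in parental DAC, 101 and 103 in resistant DMSO, and 139 and 158 in resistant DAC, so its order with the drug was opposite in the lines. When single libraries were left out, LTR1D1 and LTR26D lost their call without any of 6 libraries, LTR1F1 without any of 7, LTR108b_Mam without any of 5, LTR81 without the first parental DMSO, either parental DAC or the first resistant DMSO library (1.09 to 1.25), and LTR1A2 without the second parental DAC, the first resistant DMSO or the first resistant DAC library (-1.11 to -0.99).

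When both lines held the drug, 8 families were raised and 15 lowered in resistant cells, beside 1.97% and 5.24% of all repeat families. TPM, which moved the median of all repeat families by 0.23, gave 14 raised and 9 lowered, and scaling by gene reads, which moved it by -0.16, gave 6 and 24. At an adjusted p under 0.05 in limma, 29 were higher and 41 lower, beside 17.1% and 18.9%. This comparison uses the same parental DAC libraries as the DAC effect in parental cells. LTR6A was 2.76-fold higher in resistant DAC than in parental DAC, a log2 fold change of 1.46 ± 0.06 (SE, limma adjusted p = 9.9e-05). LTR21A, LTR32, LTR101_Mam, LTR22B2, LTR30, LTR1B and LTR81 were raised by 1.13 to 1.51 on the log2 scale. Among the 15 lowered families the lowest values were -2.29 for LTR1F1, -2.19 for LTR23, -1.86 for LTR48B and LTR26, -1.5 for LTR2752, -1.45 for LTR75_1, -1.34 for LTR26E, -1.33 for LTR16B, -1.27 for LTR67B and -1.26 for LTR1D1. LTR84a, LTR88c, LTR45C, LTR22B and LTR34 were at -1.12 to -1.01. Of these, LTR88c, LTR45C, LTR22B and LTR34 lost their call without any of 3 to 5 single libraries, LTR26E without any of 7 and LTR1D1 and LTR32 without any of 3. Under TPM LTR84a, LTR88c, LTR45C, LTR22B, LTR34 and LTR26E were not called (-1.11 to -0.78). LTR30 was not called without the second resistant DAC library (0.98), nor LTR81 without the first (0.91). Under gene-read scaling LTR1B and LTR81 were not called.

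LTRs were set beside the internal parts of the same proviruses, which hold the viral genes. LTR4 and HERV3-int rose together with DAC in parental cells, by 1.62 and 1.13 on the log2 scale. The difference between both DAC effects, resistant minus parental, was -1.22 and -1.07. Between the lines in DMSO they were at 0.66 and 0.07. LTR6A and HERVS71-int did not move together, with -1.07 for the LTR and 0.37 (limma adjusted p = 0.15) for the internal part. Between the lines in DMSO, LTR21A was at 1.08 (0.90 to 0.97 under the other scalings) while HERVFH21-int was lowered, at -1.43 (limma adjusted p = 0.0025). LTR2 was at -0.37 where HERVE-int was lowered, at -2.77 (limma adjusted p = 2.5e-06). LTR17 and HERV17-int were both lower in the resistant line, at -0.74 (limma adjusted p = 0.0079) and -0.69 (limma adjusted p = 0.0036). LTR5_Hs, the LTR of the youngest HERV-K proviruses, was at 0.18 with DAC in parental cells and 0.06 between the lines in DMSO, where HERVK-int was at 0.22 and -0.05. LTR5A and LTR5B, set beside the same internal part, had negative values, with -0.37 (limma adjusted p = 0.020) and -0.12 (limma adjusted p = 0.20) with DAC and -0.31 (limma adjusted p = 0.028) and -0.44 (limma adjusted p = 0.0062) between the lines.

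**Figure D5:**
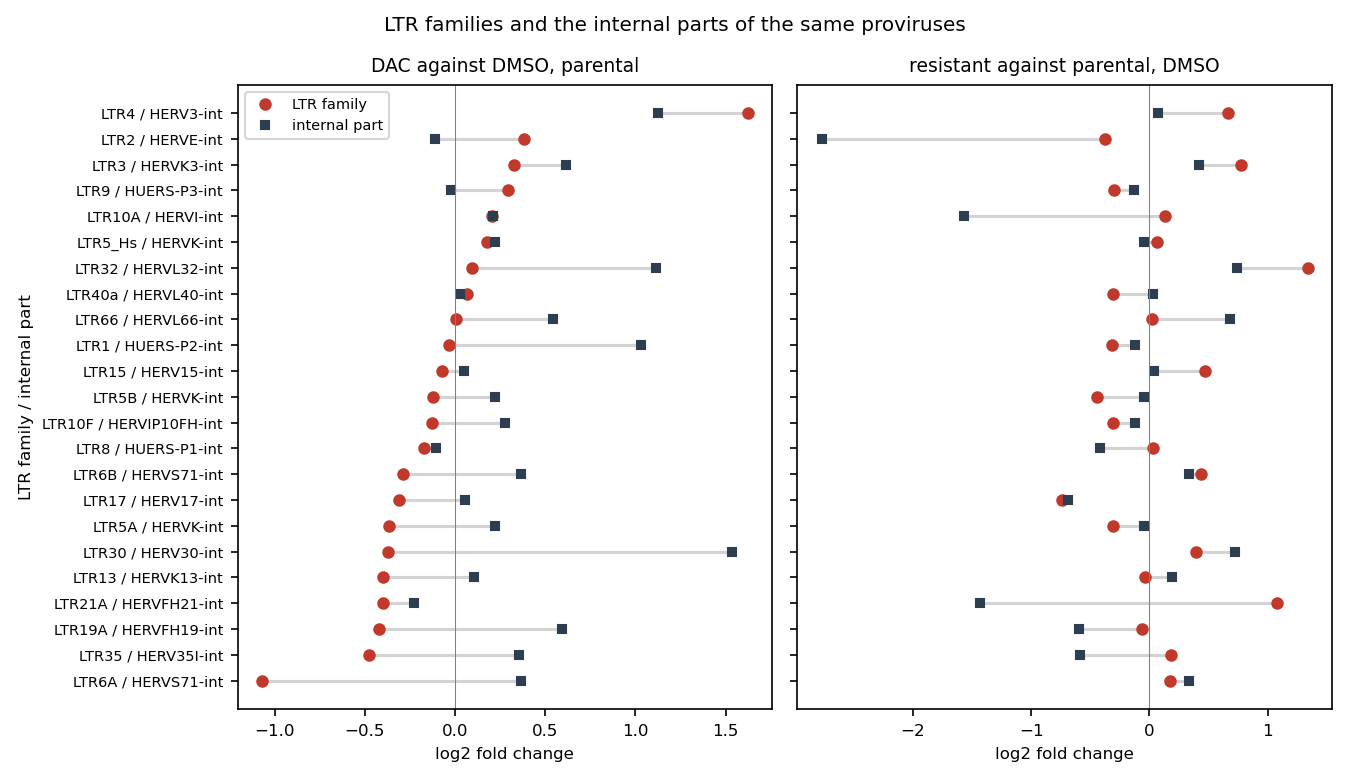
Log2 fold change of 23 LTR families with a mean of at least 100 reads (circles) and of the internal parts of the same proviruses (squares), with DAC in parental cells (left) and between the lines in DMSO (right). Rows are ordered by the LTR's change with DAC, with LTR4 and HERV3-int in the top row at 1.62 and 1.13, and the rightmost square on the left is HERV30-int at 1.54, which rests on a mean of 9.25 reads. LTR2 with HERVE-int and LTR21A with HERVFH21-int are the widest pairs on the right.

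At the gene level, ERV3-1 had 13.9 and 13.2 FPKM in parental DMSO, 26.7 and 28.7 in parental DAC, 5.91 and 6.18 in resistant DMSO, and 5.13 and 5.05 in resistant DAC. Like LTR4 it was highest in parental DAC, but its resistant libraries were below parental DMSO, whereas those of LTR4 were above. It changed by 0.98 ± 0.05 on the log2 scale under DAC in the parental line (SE, limma adjusted p = 1.1e-05), and -1.05 ± 0.05 in the resistant line in DMSO (limma adjusted p = 8.7e-06). Single copies cannot be told apart in a family value, so the part of the printed LTR4 copy in the level of the family was not tested. The 3′ LTR4 copy overlaps 561 bases of ERV3-1 exons, so some reads may be counted in both the gene and the family.

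Among genes that silence LTRs, none passed the fold limit of a call in 4 of the 5 comparisons, but many passed an adjusted p, with 7 of 18 lower and 0 higher with DAC in resistant cells. The list held 18 genes, among them DNA methyltransferases (DNMT1, DNMT3A, DNMT3B), the maintenance factors UHRF1 and HELLS, TRIM28 and SETDB1, which set repressive histone methylation at LTRs, the HUSH complex members TASOR, MPHOSPH8 and PPHLN1, and the heterochromatin proteins CBX3 and CBX5. All 18 were tested. Limma called 0 with DAC in parental cells (12 at an unadjusted p under 0.05, or 66.7%, where 62.5% of all genes passed it), beside 6.66% of all genes raised and 2.64% lowered. It called 0 between the lines in DMSO (13 at an unadjusted p under 0.05, or 72.2%, where 61.9% of all genes passed it), beside 4.45% and 4.28%, and 0 with DAC in resistant cells (10 at an unadjusted p under 0.05, or 55.6%, where 27.0% of all genes passed it), beside 0.114% and 0.121%. For the difference between both DAC effects it also called 0 (12 at an unadjusted p under 0.05, or 66.7%, where 56.0% of all genes passed it), beside 3.46% and 7.16%. At an adjusted p under 0.05 in limma, 7 were higher and 5 lower with DAC in parental cells, beside 33.6% and 24.1% of all genes. The counts were also 7 and 5 in the resistant line in DMSO, beside 31.3% and 26.2%. With DAC in resistant cells 0 were higher and 7 lower, beside 5.88% and 5.35%. When both lines held DAC 6 were higher and 7 lower in the resistant line, beside 32% and 35.1%, and the difference between both DAC effects was positive for 5 and negative for 6, beside 20.9% and 28.4%. CBX5 changed by -0.69 on the log2 scale with DAC in parental cells (limma adjusted p = 2.6e-06) and by 0.78 in the resistant line in DMSO (limma adjusted p = 2.0e-06), and it was raised in resistant cells when both lines held DAC, at 1.29, beside 5.29% of all genes raised and 9.17% lowered. HELLS was lower by 0.45 with DAC in parental cells and by 0.46 in the resistant line. DNMT1, the target of DAC, changed by 0.25 with DAC in parental cells and by -0.39 in resistant cells (limma adjusted p = 0.00032 and 0.0012). PPHLN1 was higher in the resistant line, at 0.72, and TASOR lower, at -0.42.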

How the data were processed

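The authors trimmed reads with Cutadapt (version 1.9.1), aligned them to hg38 with HISAT2 (2.1.0) and counted genes and RepeatMasker families with HTSeq (0.13.5), per the labels and the paper; the treatment of strand and of reads with several matches is not given in the sources used here. The authors deposited FPKM values multiplied by 1000, and repeat families had been scaled by repeat totals of their own, so a level is a share of repeat reads. Whole reads and family lengths were recovered from the deposited steps, with a largest relative error of 5.0e-10. Log2 values of the deposited unit plus 1, for families at 1 or more in at least 2 of 8 libraries, were fitted on all families as means of the 4 groups, using limma 3.58.1 (R 4.3.3) and a variance trend (prior degrees of freedom 1.32, residual 4). The fold change of a family with 0 reads in a library depends on this pseudocount. Genes were fitted alike on log2(FPKM + 1), which understates changes of low genes, at 1 FPKM or more in 2 libraries. Calls were made at p of 0.01 or less, not adjusted, with a log2 change of 1 or more in size. Benjamini-Hochberg adjustment ran over all families or over all genes. An exact test of 2 against 2 libraries cannot go below p = 0.333. Libraries are labelled as biological replicates, so p-values measure the spread between them, pooled over the 4 groups and drawn towards a trend over families. The resistant libraries come from the same resistant line. The p-values between the lines therefore do not cover differences between separate selections.

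The members and lists were chosen with earlier results of these data known. Families named are those called in any comparison with 10 or more reads in a library, the 10 with the highest level, the 5 with most reads, those paired with an internal part, and relatives of called families as ranges; the gene named is any of the silencing list, with ERV3-1 added after its values were seen. Classes, pairs and gene lists were written by hand. One list of cell type markers is not reported here. LTR copies were found with BLASTN 2.17.0. The fit was also run on simulated data, and its outcome there is not reported here. Alternatives were other pseudocounts and filters, TPM, quantile and gene-read scaling, a replicate block, only the libraries compared, no variance trend, adjusted p, voom, and leaving out each replicate.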

Additional observations from a re-analysis of the deposited data

Results flagged for a closer look

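The DAC effect differed between the lines for 15 solo LTR families, by an interaction test in limma, given as resistant minus parental on the log2 scale. It was negative for 11 and positive for 4, beside 3.26% and 1.12% of all repeat families, and under TPM negative for 5 and positive for 9. It was smaller in resistant cells by -3.09 for LTR26, -3.01 for LTR23, -1.83 for LTR67B, -1.62 for LTR48B, -1.34 for LTR1D1, -1.29 for LTR1D, -1.22 for LTR4, -1.21 for LTR1F1, and -1.17 for each of LTR71A and LTR1A2. LTR108b_Mam was at -8.34, a value that rests on 0 to 12 reads and on the pseudocount. It was larger by 1.33 for LTR1B, 1.29 for LTR6A, 1.24 for LTR81 and 1.17 for LTR26D. The adjusted p of LTR1D1 and LTR1F1 was 0.050 and 0.057, and those of the other 13 were at most 0.044.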

How the results depend on the processing

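No called value changed sign under any of the 20 alternatives. The calls of LTR26 and LTR23 (DAC in parental cells and the difference between both DAC effects) and of LTR4 (DAC in parental cells) held in all 20. Those of LTR6A (the difference, and the lines under DAC) and of LTR23 and LTR21A (the lines under DAC) also held in all 20. A pseudocount of 1 FPKM left 9 of the 68 calls of named families, TPM 48, quantile normalization 53, the fit of only the libraries compared 58, a pseudocount of 10 deposited units 59, gene-read scaling and voom 62 each, and adjusted p-values 66. A pseudocount of 1 FPKM understates the changes of low families, and the median family stood at 0.412 FPKM. The cause of the losses under the other settings was not tested.
With a pseudocount of 1 FPKM, 3 families were raised and 0 lowered with DAC in parental cells, 0 and 0 between the lines in DMSO, 2 and 1 between the lines in DAC, and 1 and 2 for the difference. The median log2 fold changes of these comparisons, and of DAC in resistant cells, were then 0.016, -0.022, -0.031 and 0.0067 (DAC in parental cells, lines in DMSO, lines in DAC, DAC in resistant cells). Under TPM these medians were -0.35, -0.21, 0.10 and -0.032 and that of the difference 0.35, with 6 raised and 9 lowered with DAC in parental cells, 14 and 9 between the lines in DAC, and 9 and 5 for the difference. Under quantile normalization the medians were 0.0082, -0.0076, -0.00019, 0.0067 and 0.028. Scaling by gene reads gave medians of 0.029, -0.27 and -0.29, and 0.020 for the difference, with 12 and 24 families lowered between the lines in DMSO and in DAC. Families with a mean of at least 100 reads, an alternative chosen after seeing the data, had medians of 0.018, -0.040 and -0.097.
With each replicate left out in turn, 8 to 12 families were raised and 2 to 2 lowered with DAC in parental cells, 7 to 9 and 4 to 8 between the lines in DMSO, 0 to 2 and 0 to 1 with DAC in resistant cells, 7 to 10 and 10 to 18 between the lines in DAC, and 2 to 6 and 9 to 13 for the difference. The medians ran from 0.023 to 0.076, -0.0996 to -0.052, -0.019 to 0.051, -0.154 to -0.089, and -0.024 to 0.022. Without either parental DMSO library, 4 families were lowered between the lines in DMSO. For the difference, 2 families were raised without either parental DAC library or the first resistant DMSO library, and 6 without the second resistant DMSO or the first resistant DAC library. A left-out library leaves 1 in its group, which is assumed to vary like the others.
Deviations of replicates of the same number had correlations of -0.060 to 0.20 between groups over 873 families. With 2 replicates per group, this check cannot exclude an effect shared by replicates of the same number. With the replicate number as a block, 13, 19, 0, 25 and 13 families were called in the 5 comparisons, against 14, 16, 0, 23 and 15 without it.
With 2 libraries per group, and 78 families with a mean under 100 reads, small changes of low families could not be resolved. A family value cannot tell copies inside gene transcripts from copies with transcripts of their own.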
